A study of Homo sapiens with 6 samples.

Results

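The collagen chain genes were described in a human melanoma line and in a pair of drug-resistant lines derived from it. The members were all protein-coding genes named COL, a number, A and a number, which gave 44 genes of 60617 gene IDs in the files. The 6 RNA-seq libraries fell into 3 groups of 2. Parental cells were the TR derivative of 1205Lu, a melanoma line with a BRAF V600E mutation, carried a GAL4-ELK1 reporter, and were kept in the solvent DMSO. PBRT15 and PBRT16 are paradox breaker resistant tumor lines, which were established from 1205Lu xenograft tumors grown in mice and were kept in 500 nM PLX8394, an inhibitor of mutant BRAF designed not to activate the pathway paradoxically. Each resistant line is a single line, and line and drug went together in every library, so the effect of the line and that of the drug cannot be told apart. The labels do not say whether the replicates of a group were separate cultures, so the p-values measure the spread between these libraries only. The question was how the resistant lines differ in expression from the parental cells.

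Collagens are secreted or membrane proteins built of 3 chains wound into a triple helix, and many need chains of more than 1 gene. Fibrillar collagens form the cables of connective tissue. Network collagens form sheets such as the basement membrane, beaded collagen VI forms fine filaments around cells, FACIT collagens sit on the surface of fibrils, and the transmembrane ones stay anchored in the cell. Melanoma cells in tissue lie within such a matrix, and part of it can be made by the tumor cells themselves.

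Values are the deposited normalized read values per gene. Ratios between genes were taken after division by the length of the canonical transcript (value per kb), unless another length is named. Shares of the whole signal, sums over lists and ranks by value were taken without that division. A gene rose or fell where limma on log2(value + 1) gave an adjusted p of at most 0.05, over 16555 genes tested, and a change of at least 2-fold. The library totals lay between 27877963 and 29580752. SOX10, a transcription factor of the melanocyte lineage, was at 4360 and 4103 in the parental libraries, 0 and 0.791 in PBRT15, and 1.495 and 0.778 in PBRT16. Of the 12 melanocytic genes listed, 6 were tested, and each line had 1 rise and 3 falls. Over all genes tested, 13.8% rose and 9.85% fell in PBRT15, and 13.1% and 9.95% in PBRT16. The 3 falls were SOX10, OCA2 and ERBB3. They reached the filter on low values (at least 10 in at least 2 libraries) in the parental libraries alone. Their direction was therefore fixed. MITF, the regulator of the melanocyte lineage, rose from 109.0 and 113.3 in parental cells to 823.5 and 927.0 in PBRT15 (2.96, adjusted p = 0.000202) and to 2209 and 2159 in PBRT16 (4.28, adjusted p = 8.44e-05). OCA2, a pigment gene, was at 50.5 and 70.2 in parental cells and at 0 to 0.902 in the lines, and ERBB3 fell in both (-7.91 and -8.44, adjusted p = 0.000769 and 0.000638). TYR, TYRP1, MLANA, PMEL, DCT, SLC45A2, GPR143 and TRPM1 were at 0 to 29.4 in all 6 libraries, parental cells included.

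Collagen mRNA as a whole was far more abundant in the resistant lines. The 44 genes together took 0.132% and 0.14% of the parental signal, 2.41% and 2.58% of the PBRT15 signal and 0.399% and 0.468% of the PBRT16 signal. The 3 groups did not overlap. COL6A3 alone took 1.6% and 1.7% of the PBRT15 signal. Without it, the other collagens still made up 0.806% and 0.884% in PBRT15 against 0.131% and 0.139% in parental cells. In bulk RNA, fewer cells that express a gene and less of its RNA per cell cannot be told apart.

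Of the 44 members, 28 passed the filter on low values (at least 10 in at least 2 libraries). In PBRT15, 13 of these rose and 6 fell, where 13.8% of all genes tested rose and 9.85% fell, 23.6% in either direction. In PBRT16, 10 rose and 7 fell, where 13.1% of all genes tested rose and 9.95% fell, 23.1% in either direction. Between the lines, 2 were higher and 9 lower in PBRT16 than in PBRT15, against 4.49% and 4.77% of all genes tested, 9.26% in either direction. The median log2 fold change of the 28 was 0.70 in PBRT15 and 0.56 in PBRT16, beside -0.01 and 0.00 over all genes tested. Of the 28, COL9A1, COL9A3 and COL19A1 reached the filter in the parental libraries alone, so they could only be lower elsewhere. COL8A2 and COL26A1 reached it in the resistant lines alone, so they could only be higher there. Both comparisons share the 2 parental libraries. By call, 9 members rose in both lines, 5 fell in both, and COL13A1 rose in PBRT15 and fell in PBRT16. The share of all genes tested with each such pair of calls was not counted, so these counts are a description only.

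**Figure D1:**
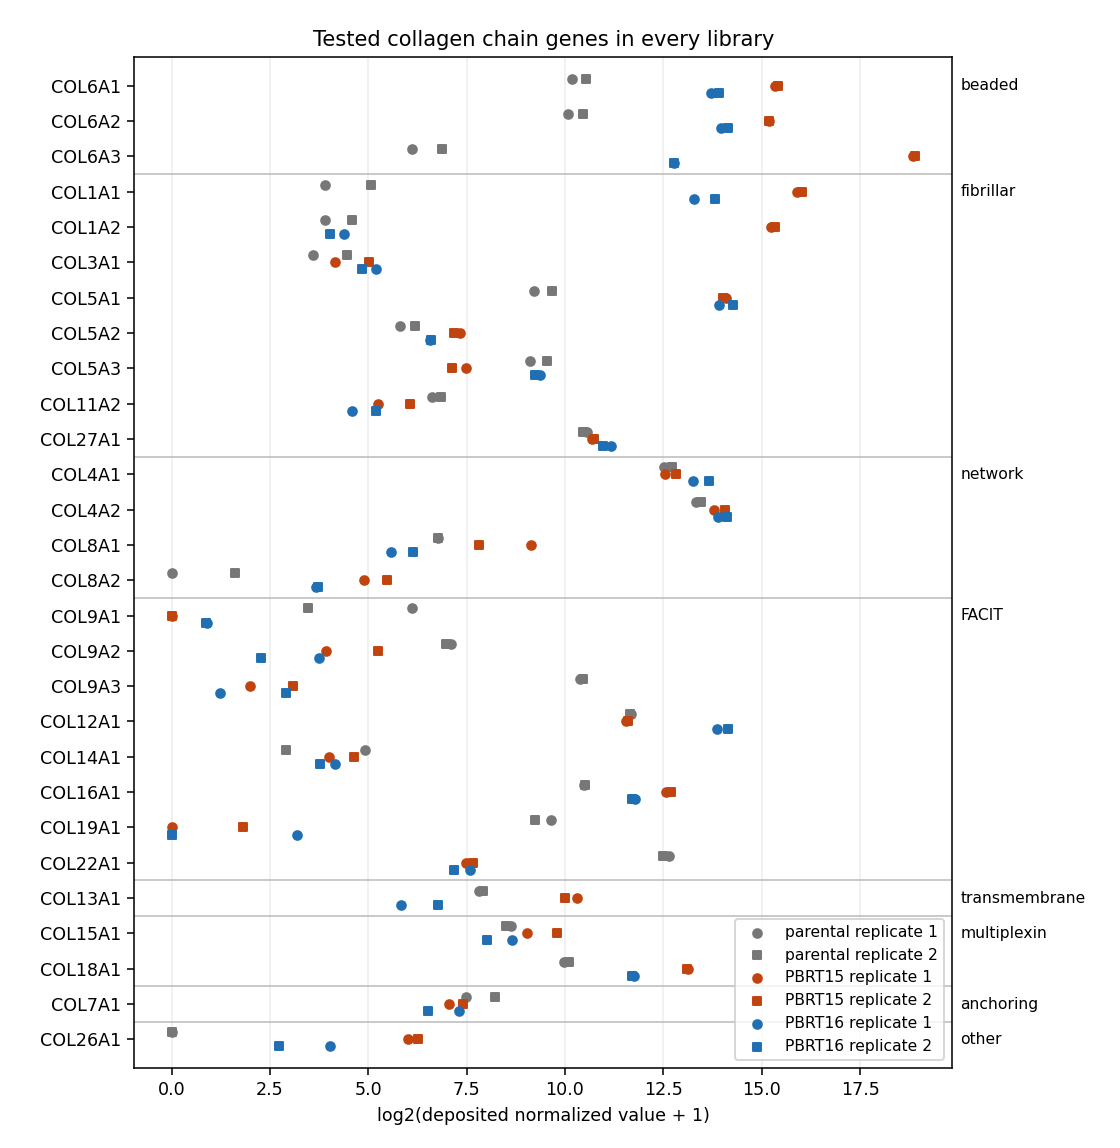
Log2(value + 1) of the 28 tested collagen genes in each library, by collagen class. Gray points are parental, orange PBRT15 and blue PBRT16, with circles for replicate 1 and squares for replicate 2. COL6A3 reaches 486261 in PBRT15, while COL3A1 stays between 11.1 and 35.7 in every library.

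The 16 members that did not pass the filter had values of at most 32.4 in any library. COL25A1 held that value in a single parental library. COL23A1 was at 0 in all 6 libraries, and 8 of the 16 did not exceed 5 in any. Among the 16 were the cartilage collagen genes COL2A1 and COL11A1, the kidney and lung basement membrane chains COL4A3, COL4A4 and COL4A5, and COL17A1 of the epidermal hemidesmosome. Among the 28 genes above the filter, a value of 1000 was reached by 9 and 10 in the parental libraries, by 13 in each PBRT15 library and by 11 in each PBRT16 library.

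All 3 tested genes of collagen VI, the beaded collagen, rose in both lines. COL6A1 and COL6A2 encode the alpha1 and alpha2 chains, and COL6A3 encodes the much longer alpha3 chain. All 3 are joined in the collagen VI monomer. COL6A1 (ENSG00000142156, chr21:45981770-46005050, plus strand, GRCh38) and COL6A2 (ENSG00000142173, chr21:46098112-46132848, plus strand) lie in tandem, 93062 bases apart, and COL6A3 (ENSG00000163359, chr2:237324003-237414328, minus strand) is on another chromosome.

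COL6A3 was at 68.7 and 116.7 in parental cells, at 474129 and 486261 in PBRT15 and at 6924 and 6962 in PBRT16. The groups lay far apart, with PBRT15 highest and parental cells lowest. The log2 fold change was 12.37 (SE 0.26, limma adjusted p = 5.44e-05) in PBRT15 and 6.26 (SE 0.26, adjusted p = 0.000224) in PBRT16. PBRT16 was lower than PBRT15 (log2 difference -6.11, adjusted p = 0.000827). In PBRT15, COL6A3 had the highest value of all genes in both libraries. Per kb, it ranked 26 in both, and in PBRT16 it ranked 2783 and 2807.

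COL6A1 was at 1164 and 1489 in parental cells, at 41066 and 43425 in PBRT15 and at 13384 and 15369 in PBRT16. Its log2 fold change was 5.00 in PBRT15 (adjusted p = 0.000139) and 3.44 in PBRT16 (adjusted p = 0.000344). COL6A2 was at 1085 and 1397, then 37369 and 37098, then 15870 and 18207 in the same order, which gave 4.92 (adjusted p = 0.000145) and 3.79 (adjusted p = 0.000264). For both genes the 3 groups did not overlap, and PBRT16 lay between the other two. PBRT16 was lower than PBRT15 for COL6A1 (-1.56, adjusted p = 0.00888), a call lost without PBRT16 replicate 1, and for COL6A2 (-1.13, adjusted p = 0.0189), a call lost when any single library of either line was left out. Over 19 alternatives these adjusted p-values ranged from 0.00036 to 0.261 and from 0.00144 to 1.0. The alternatives include a stricter test against a fold of 2, under which neither was called. COL6A2 was also not called with no filter on low values. COL6A5 and COL6A6, which encode alternatives to the alpha3 chain, were at 0 to 2.08 in every library.

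The proportion of alpha1 to alpha2 mRNA varied little, and that of alpha3 varied widely. Per kb, COL6A1 was 0.874 to 0.879 of COL6A2 in the parental libraries, 0.901 and 0.959 in PBRT15 and 0.691 and 0.692 in PBRT16. COL6A3 per kb was 0.0235 and 0.0313 of COL6A1 in parental cells, 4.61 and 4.47 times COL6A1 in PBRT15, and 0.206 and 0.181 of COL6A1 in PBRT16. The alpha3 mRNA was thus the scarcest of the 3 per kb in parental cells and the most abundant in PBRT15. With lengths from the union of exons, the PBRT15 ratios were 2.97 and 2.88, and the parental ratios were 0.0152 and 0.0202. The ratios are given as values and were not tested.

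The start regions of COL6A2 and COL6A3 differ in composition. The windows below run from 250 bases before to 50 bases after the RefSeq start (GRCh38.p14) and are shown because these partner chains rose by such different amounts. Capitals mark a match to any of 6 motifs, each searched on both strands. The core promoter motifs were the TATA box, with the letters TATAAA, the box named CCAAT, and the GC box, spelled GGGCGG. The others were an AP-1 site, which reads TGANTCA, a SOX motif with the letters ACAAAG, and a TEAD motif, which is CATTCC. The COL6A3 window is chr2:237414115-237414414 on the minus strand, and that of COL6A2 is chr21:46097862-46098161 on the plus strand.
COL6A3: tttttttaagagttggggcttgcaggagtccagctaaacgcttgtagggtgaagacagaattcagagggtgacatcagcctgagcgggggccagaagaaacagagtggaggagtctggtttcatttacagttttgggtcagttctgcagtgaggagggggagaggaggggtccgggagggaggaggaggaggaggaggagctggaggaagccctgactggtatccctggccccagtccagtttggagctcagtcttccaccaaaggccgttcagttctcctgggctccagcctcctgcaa
COL6A2: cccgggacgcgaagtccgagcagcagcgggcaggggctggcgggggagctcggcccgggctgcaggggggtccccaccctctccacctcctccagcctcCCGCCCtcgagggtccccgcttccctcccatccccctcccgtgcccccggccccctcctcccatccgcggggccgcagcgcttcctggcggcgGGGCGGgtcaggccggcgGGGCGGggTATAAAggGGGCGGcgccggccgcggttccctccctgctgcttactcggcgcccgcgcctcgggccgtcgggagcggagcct
The COL6A2 window held 4 GC boxes and a TATA box 32 bases before the start, had a GC content of 79.3% and has no overlap between these motifs. The COL6A3 window held none of the 6 motifs and had a GC content of 56.3%. Of all 35116 windows in the table, 45.0% held a GC box and 11.5% a TATA box, so these matches are common and describe the sequence only. Windows were present for 32 of the 44 members, and COL6A1 had none. A link between the windows and the rises was not tested.

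Genes around COL6A3 were compared, after its values were seen, to show whether its neighbors moved likewise. COPS8 was between 4145 and 6609 in all 6 libraries and LRRFIP1 between 5489 and 11307. MLPH, a melanosome transport gene, was at 620.5 and 649.4 in parental cells, at 3590 and 3091 in PBRT15 and at 4865 and 5515 in PBRT16. None of the 7 protein-coding neighbors within 600000 bases followed the COL6A3 order of PBRT15 above PBRT16 above parental cells by group.

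The fibrillar collagens held rises and falls. In PBRT15, 4 of 8 tested members rose and 1 fell, and in PBRT16, 2 rose and 1 fell. Collagen I is the main fibrillar collagen, whose usual molecule joins a pair of alpha1 chains (COL1A1) with an alpha2 chain (COL1A2). An alpha1 homotrimer is also known.

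COL1A1 (ENSG00000108821, chr17:50184101-50201632, minus strand) was at 13.9 and 32.7 in parental cells, at 60705 and 67057 in PBRT15 and at 9942 and 14432 in PBRT16. It was nearly silent in parental cells and abundant in both lines. The log2 fold change was 11.47 (SE 0.43, adjusted p = 0.000171) in PBRT15 and 9.06 (SE 0.43, adjusted p = 0.000311) in PBRT16. The lower level in PBRT16 than in PBRT15 (-2.41, adjusted p = 0.028) was no longer called when any single library of either line was left out, and its adjusted p ranged from 0.0029 to 0.266 over 19 alternatives.

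COL1A2 (ENSG00000164692, chr7:94394895-94431227, plus strand) was at 14.03 and 23.2 in parental cells, at 38540 and 41287 in PBRT15 and at 19.9 and 15.4 in PBRT16. It rose in PBRT15 by 11.03 on the log2 scale (SE 0.27, adjusted p = 6.75e-05). In PBRT16, the values overlapped with those of parental cells (-0.04, SE 0.27, adjusted p = 0.917). PBRT16 was lower than PBRT15 (log2 difference -11.07, adjusted p = 0.000181), the largest difference between the lines among the members. The lines thus shared a high COL1A1 level but not a high COL1A2 level.

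Per kb, COL1A1 was 1.35 and 1.39 times COL1A2 in PBRT15, and 429 and 801 times COL1A2 in PBRT16. In parental cells the ratio was 0.852 and 1.21, at values of both genes that did not exceed 32.7. Of the genes beside COL1A2 on chromosome 7, looked up after its values were seen, GNG11 was at 908.6 and 941.2 in parental cells, at 1311 and 1360 in PBRT15 and at 793.6 and 802.3 in PBRT16, with PBRT15 highest as for COL1A2. TFPI2 was at 558.2 and 448.8 in parental cells and between 32.3 and 76.2 in the resistant lines. BET1 was between 680.2 and 824.8, CASD1 between 511.0 and 761.4, and SGCE between 2236 and 3775 in all libraries. PEG10 was between 2928 and 7046. COL3A1, the fibrillar partner of collagen I in skin and vessels, was at 11.1 and 21.0 in parental cells, at 16.7 and 31.5 in PBRT15 and at 35.7 and 27.5 in PBRT16, and it did not pass the test in either line (0.56 and 0.99, adjusted p = 0.341 and 0.124).

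Collagen V starts and limits the width of collagen I fibrils, and its common molecule joins a pair of alpha1 chains with an alpha2 chain. COL5A1 (ENSG00000130635, chr9:134641803-134844843, plus strand) was at 592.8 and 812.0 in parental cells, at 17499 and 16458 in PBRT15 and at 15495 and 19618 in PBRT16. It rose to a like level in both lines, by 4.61 (SE 0.21, adjusted p = 0.00028) and 4.65 (SE 0.21, adjusted p = 0.000278), and the lines overlapped. COL5A2, its partner, changed less, from 55.2 and 72.1 to 159.8 and 145.0 in PBRT15, where it rose by 1.26 (adjusted p = 0.00493), and to 93.3 and 94.8 in PBRT16 (0.57, adjusted p = 0.0488, under 2-fold). COL5A1 per kb was therefore 8.69 and 9.11 times COL5A2 in parental cells, 88.6 and 91.8 times in PBRT15, and 134 and 167 times in PBRT16.

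COL5A3, the third collagen V chain, went the other way in PBRT15. It was at 554.7 and 743.9 in parental cells, at 178.7 and 138.8 in PBRT15 and at 657.7 and 598.1 in PBRT16. It fell by 2.02 in PBRT15 (adjusted p = 0.00254) and overlapped with parental cells in PBRT16. It was higher in PBRT16 than in PBRT15 (1.99, adjusted p = 0.00856), a call lost without PBRT16 replicate 1, and the adjusted p ranged from 0.000631 to 0.0979 over 19 alternatives. Per kb, COL5A1 was 0.202 and 0.172 of COL1A1 in PBRT15, and 1.09 and 0.952 times COL1A1 in PBRT16.

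Among the other fibrillar genes, COL27A1, which is expressed in developing cartilage, was between 1414 and 2310 in all libraries (log2 fold changes 0.21 and 0.56, neither called). COL11A2, a chain of cartilage collagen XI, was at 97.2 and 113.8 in parental cells, at 36.7 and 65.2 in PBRT15 and at 22.8 and 35.7 in PBRT16. It fell by 1.84 in PBRT16 (adjusted p = 0.0147). That call was lost without either parental library and without PBRT16 replicate 1, and the adjusted p ranged from 0.00526 to 0.214 over 19 alternatives.

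**Figure D2:**
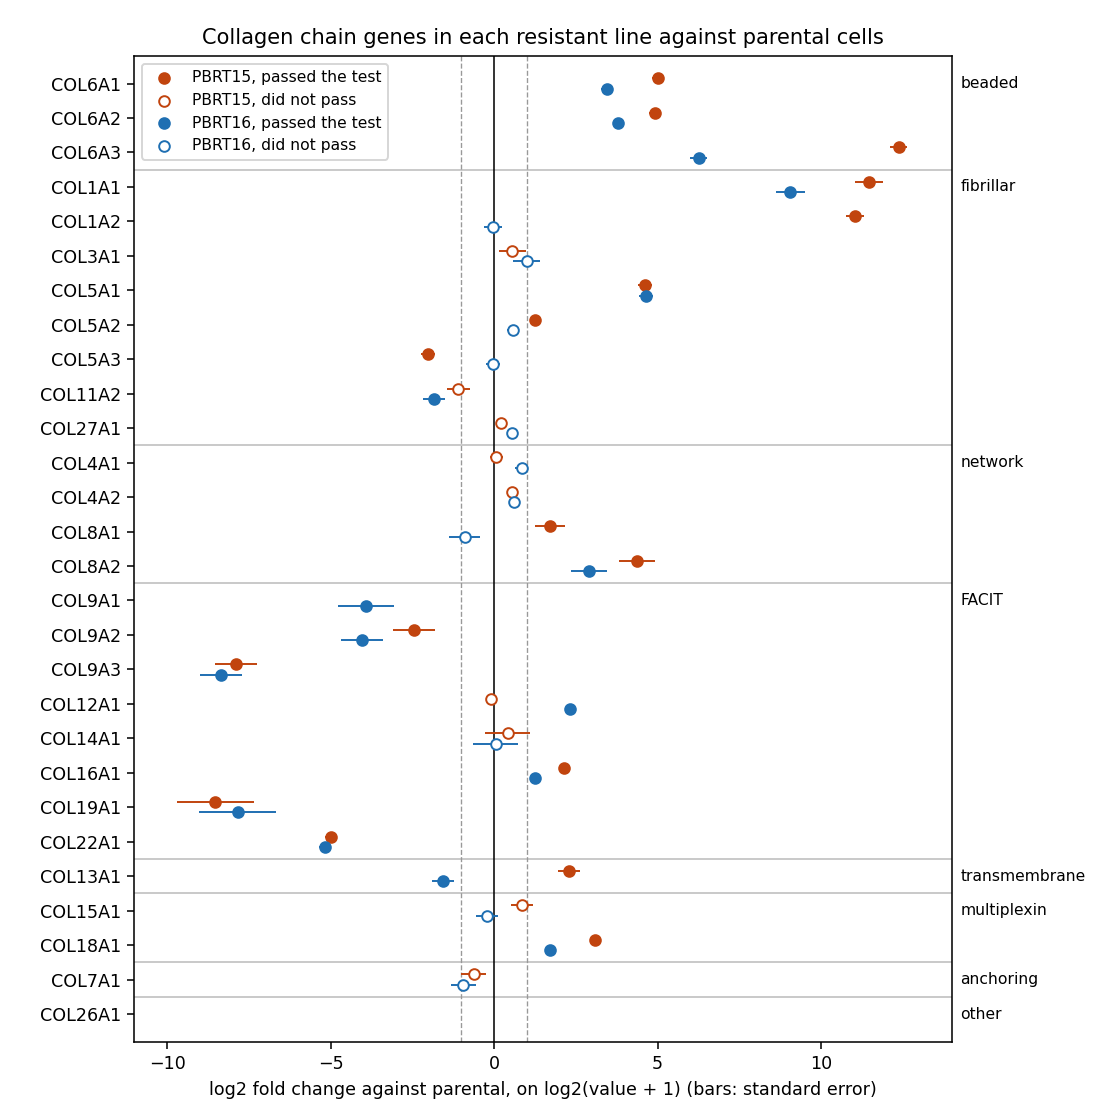
Log2 fold change against parental cells of the tested collagen genes in PBRT15 (orange) and PBRT16 (blue), with standard errors as bars. Filled points passed the test, open points did not, and dashed lines mark a 2-fold change. COL1A2 stands at 11.03 in PBRT15 and at -0.04 in PBRT16. No point is drawn where a group was listed at 0 in both libraries, as for COL26A1 and for COL9A1 in PBRT15.

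Basement membrane collagen IV was abundant in all cells, and COL4A1 and COL4A2 changed by less than 2-fold in the resistant lines. COL4A1 (ENSG00000187498, chr13:110148963-110307157, minus strand) was at 5852 and 6723 in parental cells, at 5945 and 7276 in PBRT15 and at 9778 and 12953 in PBRT16. COL4A2 (ENSG00000134871, chr13:110305812-110513209, plus strand) was at 10338 and 11241, then 14219 and 17242, then 15146 and 17784. In PBRT16 the changes were 0.84 (adjusted p = 0.0279) and 0.61 (adjusted p = 0.0376), and in PBRT15 they were 0.07 (adjusted p = 0.807) and 0.54 (adjusted p = 0.0508). None of these is a call, although COL4A1 was called in PBRT16 without PBRT16 replicate 1. The gene bodies overlap on opposite strands, and the strand setting of the counting was not stated. COL4A1 and COL4A2 are the alpha1 and alpha2 chains of the most widespread collagen IV molecule, and COL4A1 per kb was 0.412 to 0.718 of COL4A2 across the 6 libraries.

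COL4A1 and COL4A2 lie head to head on opposite strands, and their start windows share 226 bases. The COL4A2 window (chr13:110307034-110307333, plus strand) is shown because this pair of chains shares it.
COL4A2: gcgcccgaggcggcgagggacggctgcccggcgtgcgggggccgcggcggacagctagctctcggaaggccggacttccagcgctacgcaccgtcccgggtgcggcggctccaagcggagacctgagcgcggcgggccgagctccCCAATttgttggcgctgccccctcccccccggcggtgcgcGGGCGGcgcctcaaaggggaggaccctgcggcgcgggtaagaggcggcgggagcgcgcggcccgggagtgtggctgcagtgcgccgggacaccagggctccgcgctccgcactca
It held 1 CCAAT box and 1 GC box, marked in capitals as above. The same arrangement is known for COL4A3 with COL4A4, whose annotated starts are 171 bases apart, and for COL4A5 with COL4A6, 341 bases apart. These 4 genes were at 0 to 10.3 in all libraries.

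Collagen VIII, a short-chain network collagen of vessel walls and the cornea, was low throughout. COL8A1 was at 108.3 and 108.1 in parental cells, at 565.8 and 224.8 in PBRT15 and at 46.9 and 70.0 in PBRT16. It rose by 1.71 in PBRT15 (adjusted p = 0.0415) and was lower in PBRT16 than in PBRT15 (-2.62, adjusted p = 0.0292). Both calls were lost without either parental library, without PBRT15 replicate 1, without either PBRT16 library and with no filter on low values, and the adjusted p of the rise ranged from 0.0122 to 0.531 over 19 alternatives. COL8A2 was at 0 and 2.05 in parental cells, at 28.5 and 43.2 in PBRT15 and at 11.8 and 12.3 in PBRT16, and it rose in both lines (4.37 and 2.90, adjusted p = 0.00443 and 0.0149). As COL8A2 passed the filter through the resistant lines alone, the direction of these calls was fixed. The PBRT16 call was lost without either PBRT16 library.

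The FACIT collagens, which decorate fibrils, moved in both directions. Of 8 tested members, 5 fell in each line, 1 rose in PBRT15 and 2 rose in PBRT16. COL9A1, COL9A3 and COL19A1 are 3 of those that fell, and they passed the filter through the parental libraries alone, so their direction was fixed. Among the other 5, COL9A2 and COL22A1 fell in both lines, COL16A1 rose in both and COL12A1 rose in PBRT16.

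COL22A1, a collagen of tissue junctions, was the main FACIT mRNA of parental cells. It was at 6389 and 5718 there, 178.1 and 200.6 in PBRT15, and 192.5 and 145.0 in PBRT16. The log2 fold changes were -4.99 (SE 0.18, adjusted p = 0.000163) and -5.17 (SE 0.18, adjusted p = 0.000145), and the lines overlapped each other. Per kb it made up 16.4% and 13.7% of all collagen signal in parental cells, where COL4A2 held 26.3% and 26.8% and COL4A1 14.7% and 15.8%, and at most 0.159% in the resistant lines. With lengths from the union of exons, COL22A1 held 24.0% and 20.3% in parental cells and COL4A2 15.9% and 16.3%, so their order turned.

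Collagen IX, which coats cartilage fibrils, is a trimer of the COL9A1, COL9A2 and COL9A3 chains. COL9A3 was at 1339 and 1416 in parental cells, at 2.95 and 7.44 in PBRT15 and at 1.36 and 6.51 in PBRT16. The log2 fold changes were -7.90 (adjusted p = 0.0013) and -8.35 (adjusted p = 0.00113). COL9A2 was at 136.7 and 123.9, then 14.3 and 36.9, then 12.3 and 3.86, with log2 fold changes of -2.45 (adjusted p = 0.0352) and -4.03 (adjusted p = 0.00837). The PBRT15 fall was no longer called without either parental library, without PBRT15 replicate 1 or with no filter on low values, and the PBRT16 fall without parental replicate 1, with adjusted p-values of 0.0114 to 0.249 in PBRT15 over 19 alternatives. COL9A1 was at 68.4 and 10.04 in the parental libraries, which differed widely from each other. It was listed at 0 in both PBRT15 libraries and was at 0.851 and 0.836 in PBRT16 (-3.91, adjusted p = 0.0218). Its call in each line was lost without either library of that line. The 3 chains were unequal already in parental cells, where COL9A3 per kb was 11.2 and 13.0 times COL9A2. COL9A3 overlaps TCFL5 on the other strand, and TCFL5 was between 457.7 and 815.9 in all libraries.

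COL19A1, a basement membrane zone FACIT, was at 795.9 and 601.1 in parental cells, at 0 and 2.50 in PBRT15 and at 8.14 and 0 in PBRT16. The log2 fold changes were -8.53 (SE 1.18, adjusted p = 0.00576) and -7.84 (SE 1.18, adjusted p = 0.00741). The second call was lost without parental replicate 1 (adjusted p = 0.052), within a range of 0.000507 to 0.052 over 19 alternatives. COL14A1 was between 6.57 and 29.1 in all libraries and did not pass the test.

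COL12A1 and COL16A1 were the FACIT genes that rose. COL12A1 (ENSG00000111799, chr6:75084326-75206267, minus strand) binds to collagen I fibrils in tissues under load. It was at 3290 and 3226 in parental cells, at 2990 and 3098 in PBRT15 and at 14909 and 18125 in PBRT16. The rise was seen in PBRT16, by 2.33 (SE 0.14, adjusted p = 0.00055), whereas PBRT15 changed by -0.10 (adjusted p = 0.602). PBRT16 was higher than PBRT15 by 2.43 (adjusted p = 0.00181). COL12A1 rose in the line without a high COL1A2 level. Parental cells also lacked a high COL1A2 level, and their COL12A1 values were near those of PBRT15. A link between these genes was not tested. COL16A1 rose in both, from 1421 and 1458 to 6116 and 6581 in PBRT15 (2.14, adjusted p = 0.000417) and to 3544 and 3323 in PBRT16 (1.25, adjusted p = 0.00177).

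The start windows of COL12A1 (chr6:75206004-75206303, minus strand) and of COL13A1 (chr10:69801656-69801955, plus strand) are shown because these genes separate the lines, COL12A1 rising in PBRT16 and COL13A1 in PBRT15.
COL12A1: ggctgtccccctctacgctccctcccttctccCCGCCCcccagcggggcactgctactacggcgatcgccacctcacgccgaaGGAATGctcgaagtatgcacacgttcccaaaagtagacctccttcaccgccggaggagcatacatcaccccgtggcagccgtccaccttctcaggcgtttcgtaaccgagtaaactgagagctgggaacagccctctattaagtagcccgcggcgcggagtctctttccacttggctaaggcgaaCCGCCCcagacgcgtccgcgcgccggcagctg
COL13A1: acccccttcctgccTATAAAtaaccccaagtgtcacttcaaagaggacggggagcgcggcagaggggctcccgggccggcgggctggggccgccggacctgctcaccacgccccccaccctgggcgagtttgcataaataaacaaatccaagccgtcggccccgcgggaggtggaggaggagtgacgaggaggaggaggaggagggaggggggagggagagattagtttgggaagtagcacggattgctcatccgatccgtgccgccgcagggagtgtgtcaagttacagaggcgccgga
The COL12A1 window held 2 GC boxes and 1 TEAD motif. The COL13A1 window held 1 TATA box match, 236 bases before the start. A TEAD motif was in 14% of all windows, a TATA box in 11.5%, an AP-1 site in 7.71% and a SOX motif in 16.1%. Among the 32 members with a window, 3 held a TEAD motif, 7 a TATA box, 1 an AP-1 site and 6 a SOX motif. These counts are of genes with a match in any of their windows, and some members have more than 1. They are therefore not to be set against the shares of windows.

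COL13A1 (ENSG00000197467, chr10:69801880-69964275, plus strand), a transmembrane collagen of cell contacts and the neuromuscular junction, was the member that moved in opposite directions. It was at 224.0 and 239.7 in parental cells, at 1275 and 1021 in PBRT15 and at 55.8 and 109.0 in PBRT16. It rose by 2.29 in PBRT15 (SE 0.34, adjusted p = 0.00699) and fell by 1.56 in PBRT16 (SE 0.34, adjusted p = 0.0216). The lines differed by -3.85 (adjusted p = 0.00559). The fall in PBRT16 was no longer called without either parental library, and its adjusted p ranged from 0.00422 to 0.469 over 19 alternatives. The other 3 transmembrane genes, COL17A1, COL23A1 and COL25A1, did not pass the filter.

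COL18A1 (ENSG00000182871, chr21:45405165-45513720, plus strand), the basement membrane multiplexin whose end fragment is endostatin, rose in both lines. It was at 997.6 and 1093 in parental cells, at 8988 and 8762 in PBRT15 and at 3461 and 3316 in PBRT16, which gave 3.09 (SE 0.11, adjusted p = 0.000171) and 1.70 (SE 0.11, adjusted p = 0.000776). PBRT16 lay below PBRT15 (-1.39, adjusted p = 0.00467). COL15A1, the other multiplexin, was at 395.2 and 364.1, then 523.9 and 892.3, then 402.9 and 259.1, and did not pass the test. COL7A1, which forms the anchoring fibrils of skin, was between 90.3 and 299.7 in all libraries and did not pass the test. Both parental libraries listed COL26A1 at 0, and it was at 63.2 and 75.2 in PBRT15 and at 15.4 and 5.69 in PBRT16. It was lower in PBRT16 than in PBRT15 (-2.74, adjusted p = 0.0215), a call lost when any single parental or PBRT15 library was left out (adjusted p 0.00929 to 0.159 over 19 alternatives).

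Taken per kb, the make-up of collagen mRNA differed by group. In parental cells, network collagens held 41.3% and 42.9% of the summed collagen value per kb and FACIT collagens 36.7% and 32.6%, while beaded collagen VI held 9.81% and 11.8%. In PBRT15, beaded collagen VI held 70.8% and 69.7% and fibrillar collagens 21.8% and 22.5%, and network collagens held 3.48% and 3.98%. In PBRT16, beaded collagen VI held 44.5% and 42.9%, fibrillar collagens 20.8% and 23.0%, network collagens 20.3% and 21.2%, and FACIT collagens 10.4% and 9.77%. The replicates of each group differed by less than the groups did in the beaded and network shares, and the fibrillar shares of the lines overlapped.

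COL6A3 alone was 48.6% and 47.8% of collagen signal per kb in PBRT15. Left out, the beaded share was 43.2% and 41.9% in PBRT15 and 42.5% and 41.1% in PBRT16, and the fibrillar share was 42.4% and 43.1% in PBRT15 against 21.5% and 23.7% in PBRT16. The sum of collagen values per kb was 6099 and 6510 in parental cells, against 92697 and 96509 in PBRT15 and 18977 and 22405 in PBRT16. A smaller network share therefore did not go with less collagen IV mRNA. With lengths from the union of exons, the network share was 28% and 29.5% in parental cells and 12.5% and 13.2% in PBRT16. The FACIT share was then 45.3% and 40.1% in parental cells, above the network share there.

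**Figure D3:**
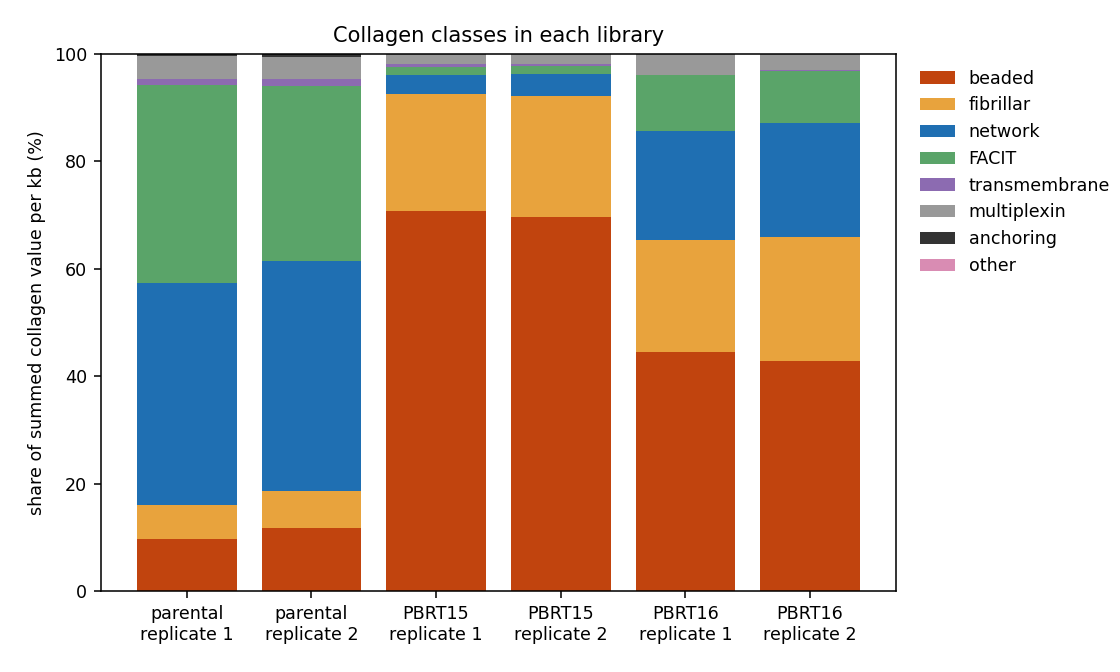
Share of the summed collagen value per kb held by each collagen class in each library, in percent. The beaded class holds 70.8% and 69.7% in PBRT15 and 9.81% and 11.8% in parental cells, where the network and FACIT classes are largest.

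**Figure D4:**
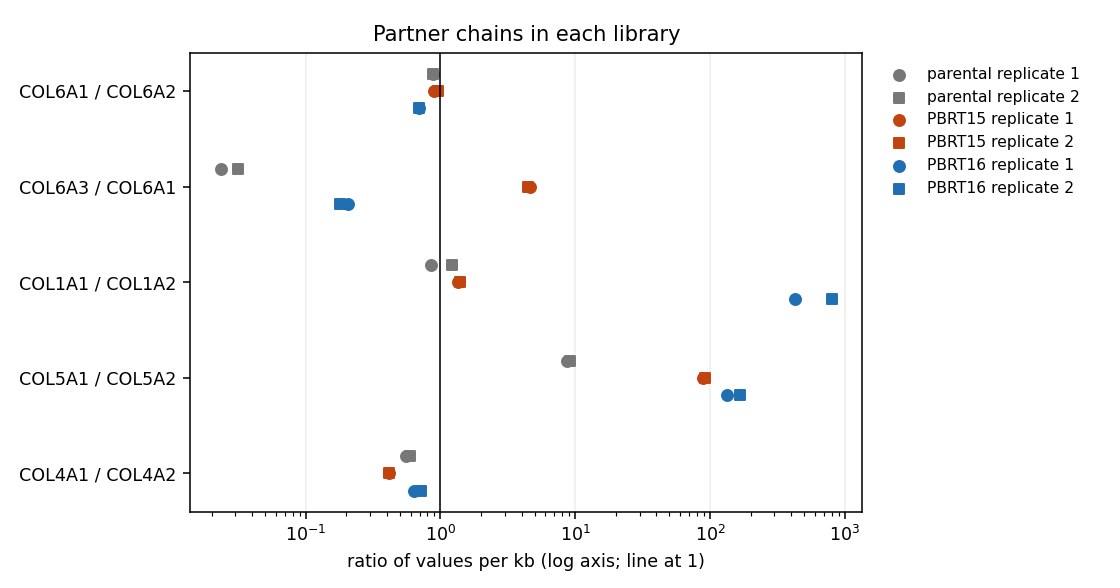
Ratio of values per kb between chains that join in 1 collagen molecule, in each library, on a log axis with a line at 1. COL6A1 and COL6A2 stay between 0.691 and 0.959, COL6A3 to COL6A1 runs from 0.0235 to 4.61, and COL1A1 to COL1A2 reaches 801 in PBRT16.

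Genes that act on collagen were counted by list, beside the 13.8% that rose and 9.85% that fell in PBRT15, and the 13.1% and 9.95% in PBRT16, over all genes tested. The counts of these lists and of the marker lists below include genes that reached the filter in some groups alone. The direction of such genes was fixed. Of 22 tested genes for folding and modification, PBRT15 had 3 rises and 1 fall, and PBRT16 had 5 rises and 5 falls, with median log2 fold changes of 0.11 and 0.14. SERPINH1, the collagen-specific chaperone HSP47, was at 7764 and 7400 in parental cells, at 23414 and 22796 in PBRT15 and at 14910 and 17969 in PBRT16, and it rose in both (1.61 and 1.11, adjusted p = 0.00146 and 0.00421). P3H2, a prolyl 3-hydroxylase, rose in both (1.94 and 3.20, adjusted p = 0.000639 and 0.00017). P4HA2, a prolyl 4-hydroxylase subunit, rose in PBRT16 (1.65, adjusted p = 0.00377). PLOD3, a lysyl hydroxylase, fell in both (-1.14 and -1.34, adjusted p = 0.00407 and 0.00261). The general chaperone HSPA5 (-1.78, adjusted p = 0.00257) and the collagen galactosyltransferase COLGALT2 (-2.79, adjusted p = 0.00373) fell in PBRT16.

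Of 15 genes for collagen export from the endoplasmic reticulum, 1 rose in each line and none fell, with median log2 fold changes of 0.32 and 0.17. Both rises were CREB3L1, a transcription factor that is known to activate collagen and secretion genes, which was at 11.5 and 12.1 in parental cells, at 106.8 and 239.9 in PBRT15 and at 120.6 and 152.4 in PBRT16 (3.66 and 3.42, adjusted p = 0.00291 and 0.00359).

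Of 12 tested genes for the trimming and crosslinking of collagen outside the cell, PBRT15 had 3 rises and 2 falls, and PBRT16 had 5 rises and 4 falls. ADAMTS2, which removes the amino-terminal propeptide of fibrillar procollagens, was at 21.9 and 19.3 in parental cells, at 444.7 and 450.7 in PBRT15 and at 1767 and 2214 in PBRT16 (4.38 and 6.52, adjusted p = 0.000162 and 6.69e-05). BMP1, the carboxy-terminal propeptidase, rose in PBRT16 (1.83, adjusted p = 0.000737). The lysyl oxidases, which crosslink collagen, differed from each other. Both parental libraries listed LOXL1 at 0, and it reached 1465 and 1569 in PBRT15 and 1678 and 1634 in PBRT16. LOXL1 thus passed the filter through the resistant lines alone and could only be higher there. LOX was at 1764 and 2085 in parental cells, at 4658 and 3104 in PBRT15 and at 46.1 and 51.3 in PBRT16, where it fell by 5.27 (adjusted p = 0.000257). LOXL4 fell in both lines (-4.00 and -5.60, adjusted p = 0.00137 and 0.00055). Of the resistant lines, PBRT16 was low in both COL1A2 and LOX. Parental cells were low in COL1A2 as well (14.03 and 23.2), but not in LOX. A link between the genes was not tested.

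Of 7 tested fibril-binding proteoglycans and organizers, PBRT15 had 3 rises and 1 fall, and PBRT16 had 2 rises and 2 falls. DCN (decorin), which binds collagen I, was at 5.66 and 2.77 in parental cells, at 86.6 and 110.8 in PBRT15 and at 33.6 and 39.2 in PBRT16 (4.30 and 2.90, adjusted p = 0.000937 and 0.00278). FMOD (fibromodulin) was at 2.795 and 5.004 in parental cells, at 53.97 and 76.19 in PBRT15 and at 0.7798 and 1.624 in PBRT16. It rose in PBRT15 (3.77, adjusted p = 0.00163) and was called lower in PBRT16 (-1.14, adjusted p = 0.0493). FMOD reached the filter value in PBRT15 alone, so it could only be higher there. The PBRT16 call is between low values, all under the filter value. PRELP fell in both (-3.11 and -2.82, adjusted p = 0.00235 and 0.00313). DCN reached the filter value in the resistant lines alone, so it could only be higher there. PRELP reached it in the parental libraries alone, so it could only be lower elsewhere.

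Of 11 tested collagen receptors, PBRT15 had 4 rises and 1 fall, and PBRT16 had 3 rises and 1 fall. ITGA11, the integrin chain that pairs with ITGB1 to bind collagen I, was at 119.9 and 66.4 in parental cells, at 1547 and 1733 in PBRT15 and at 731.3 and 917.9 in PBRT16 (4.18 and 3.18, adjusted p = 0.00102 and 0.00215). ITGA2, another collagen-binding integrin chain, fell in both, from 5426 and 6237 to 1623 and 2170 in PBRT15 and to 289.4 and 385.3 in PBRT16 (-1.63 and -4.12, adjusted p = 0.00558 and 0.000438). CD44 rose in both (1.95 and 2.15, adjusted p = 0.000704 and 0.000543). Of 8 tested collagen-degrading enzymes, PBRT15 had 4 rises and 1 fall, and PBRT16 had 1 rise and 3 falls. MMP2, a gelatinase, rose in both (2.74 and 2.94, adjusted p = 0.00132 and 0.00112), and CTSK, a collagenolytic cathepsin, was at 125.8 and 128.1 in parental cells, at 962.7 and 983.8 in PBRT15 and at 108.8 and 78.2 in PBRT16, a rise of 2.93 in PBRT15 (adjusted p = 0.000643).

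Collagen genes mark fibroblasts, so other fibroblast markers were set beside them. The 16 genes summed to 12724 to 15728 in parental cells, 47147 to 49655 in PBRT15 and 12005 to 14253 in PBRT16. Of 11 tested, PBRT15 had 7 rises and 1 fall, and PBRT16 had 3 rises and 3 falls. Between the lines, 8 of the 11 were lower in PBRT16 than in PBRT15 and 0 higher, against 4.77% and 4.49% of all genes tested. THY1, a surface protein of fibroblasts, was at 0 and 4.46 in parental cells, at 19573 and 19758 in PBRT15 and at 8.14 and 6.84 in PBRT16, so that it was high in the line with high COL1A2. THY1 reached the filter value in PBRT15 alone, so it could only be higher there. PDGFRB rose in both lines (3.96 and 4.79, adjusted p = 0.000901 and 0.000543), and PRRX1 fell in both (-2.35 and -8.50, adjusted p = 0.00206 and 7.81e-05). LUM, POSTN, PDPN, MFAP5 and TCF21 were at 0 to 4.13 in all 6 libraries, and COL3A1 at 11.1 to 35.7. The part of other cells in the collagen values of PBRT15 was not tested. Both lines came from tumors grown in mice, and no check for reads of mouse origin was made here.

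Lists of markers of other cell types held genes near 0 and genes that rose. PTPRC and CD3E of immune cells were at 0 to 2.72, CDH5 and CLDN5 of endothelium at 0 to 3.13, and EPCAM of epithelium at 0.533 to 2.59 in all libraries. The 8 immune genes summed to 840.8 to 1265 in parental cells, 2269 to 2730 in PBRT15 and 2263 to 3163 in PBRT16, most of it CD68 (818.7 to 3118). Of 2 tested immune genes, CD68 was called in each line, where it rose. The 8 endothelial genes summed to 158.6 to 263.6, 657.1 to 705.1 and 488.7 to 498.4, and the 8 epithelial genes to 1004 to 1257, 3377 to 3474 and 983.7 to 1044. Of 5 tested endothelial genes, 3 rose and 2 fell in PBRT15, while 2 rose in PBRT16. TEK, an endothelial receptor, was at 1.00 and 6.79 in parental cells, at 242.4 and 215.4 in PBRT15 and at 1.98 and 5.01 in PBRT16, and it rose in PBRT15 (5.86, adjusted p = 0.00392). TEK reached the filter value in PBRT15 alone, so it could only be higher there. ERG (3.34 and 4.00, adjusted p = 0.0179 and 0.0105) and EGFL7 (1.19 and 1.22, adjusted p = 0.0196 and 0.0181) rose in both lines. Because ERG reached the filter value in the resistant lines alone, its direction was fixed. VWF was at 9.18 and 23.15 in parental cells and at 3.48 and 4.91 in PBRT15. KDR was at 5.77 and 8.07 in parental cells and at 0.91 and 1.71 in PBRT15, and it reached the filter value of 10 in PBRT16 alone. Both were called lower in PBRT15 (-1.61 and -1.78, adjusted p = 0.0392 and 0.00705), at these low values. PECAM1 was at 0 to 28.04, with that value in a single PBRT15 library. Of 4 tested epithelial genes, 1 rose and 2 fell in PBRT15, while 1 fell in PBRT16. KRT18, a keratin, was at 814.1 and 1049 in parental cells, at 3291 and 3112 in PBRT15 and at 907.4 and 819.3 in PBRT16, and it rose in PBRT15 (1.79, adjusted p = 0.00181), while KRT14 fell in both lines (-3.69 and -4.02, adjusted p = 0.000596 and 0.000463). KRT14 reached the filter value in the parental libraries alone, so it could only be lower elsewhere.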

How the data were processed

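RNA-seq libraries were made with a TruSeq stranded mRNA protocol and sequenced as paired ends. The authors aligned with STAR, quantified with RSEM on GRCh38 with GENCODE annotation, and used DESeq2. The submitters' processing notes give STAR 2.6.1a, while the study's methods name another STAR version. Sources used here do not name the strand setting of the counting. The deposited signal values are normalized and not whole. Within 0.01, 6.26% to 40.8% of values under 100 were multiples of a library's commonest low value, so whole reads were not recovered, depth is unknown, and no counting interval is given. Of 60617 gene IDs, 60357 were matched to GENCODE 44 symbols, coordinates and lengths, and 45 pseudoautosomal duplicates were left out.

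Groups followed the sample labels. limma 3.58.1 (R 4.3.3) was fitted to log2(value + 1) of all 6 libraries in 3 groups, without a block, for 16555 genes at 10 or more in at least 2 libraries and 15 or more in sum, with Benjamini-Hochberg adjustment. A fold change is on this scale and understates the change of low genes. The test was checked in 5 simulations of PBRT15 against parental cells, each with 200 of 16555 genes changed. Of true log2 changes of 1, 2, 4 and 6, it called 18.8%, 68%, 90.4% and 94.4%. Of its calls, 2.58% were false. A gene that did not pass the test may therefore still have changed. All collagen genes could be named. Those with a group mean of at least 1000 or a call were given by library, and of each other list up to 3 called rises and 3 called falls were named. The members and lists were chosen with earlier results of these data known.
Alternatives were other pseudocounts, scalings, filters, a stricter test, a fit blocked by replicate number, and fits without single libraries. Ranges of adjusted p over the alternatives include the stricter test. Its p-values are against a fold of 2, not against no change.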

Additional observations from a re-analysis of the deposited data

Results flagged for a closer look

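The effects against parental cells differed between PBRT15 and PBRT16 for 11 collagen genes, by limma's test of the difference itself (PBRT16 minus PBRT15, log2, adjusted p at most 0.05 and at least 2-fold). PBRT16 was lower for COL1A2 (-11.07), COL6A3 (-6.11), COL13A1 (-3.85), COL26A1 (-2.74), COL8A1 (-2.62), COL1A1 (-2.41), COL6A1 (-1.56), COL18A1 (-1.39) and COL6A2 (-1.13). PBRT16 was higher for COL12A1 (2.43) and COL5A3 (1.99). COL13A1 was the member called in opposite directions against parental cells. Groups of 2 libraries are too small for a test of single outlying libraries.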

How the results depend on the processing

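Of 84 gene comparisons tested, 47 were called and 28 of these stayed called under every alternative in which they were tested, 19 each, or 18 for COL8A2 in PBRT15; no called change reversed. Left out in turn, single libraries gave 12 to 13 genes higher and 4 to 6 lower in PBRT15 against parental cells, 9 to 10 higher and 3 to 7 lower in PBRT16, and 1 to 2 higher and 5 to 7 lower in PBRT16 against PBRT15. The 3 lower in PBRT16 came without parental replicate 1, the 1 higher (COL12A1) without PBRT16 replicate 1, and the 5 lower without PBRT15 replicate 1 or without PBRT16 replicate 1. The strict test against a fold of 2 (limma treat) gave 4 lower in PBRT16 against parental cells, and 1 higher and 3 lower between the lines. No filter on low values left 5 lower between the lines. The cause was not tested. Scaling by median of ratios or library total changed no call, and upper-quartile scaling added COL11A2 in PBRT15. Deviations of same-numbered libraries from their group means had correlations of 0.018, 0.038 and 0.136 over all genes tested. Over genes with a mean of at least 100 they were -0.062, -0.013 and 0.264. The last, between PBRT15 and PBRT16, was the highest, and whether the replicate numbers pair those libraries is not known. With the replicate block, 12 genes were higher and 6 lower in PBRT15, 10 and 7 in PBRT16, and 2 and 8 between the lines. COL8A1 in PBRT15 and between the lines and COL9A2 in PBRT15 were then no longer called, and COL11A2 was called in PBRT15. Without counts, depth limits the low genes to an unknown degree.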
